A study of Mus musculus with 30 samples.

Results

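The transcripts of 31 lysosomal genes were followed through 30 libraries of mouse bone marrow derived macrophages. The genes code for soluble enzymes, membrane proteins and regulators of the lysosome, and were picked by name, with earlier results of these data known, from the 43629 gene IDs of the count tables. All cells came from C57BL/6 mice and had been grown to day 7 with CSF-1 at 20 ng/mL, which makes marrow progenitors become macrophages. Wild type cells, whose labels name no hairpin, were left unstimulated, or received IL-4 at 20 ng/mL, either alone, together with PGE2 (prostaglandin E2) at 10 µM, or together with valinomycin at 10 nM. Cells of the other experiment carried a lentiviral short hairpin RNA (shRNA), either a control or one that targets the ETS family transcription factor Etv1, and were kept unstimulated, stimulated with IL-4 alone, or stimulated with IL-4 and PGE2 together. IL-4 is the cytokine of alternative activation, PGE2 acts on receptors that can raise cyclic AMP, and valinomycin carries potassium across membranes and depolarizes mitochondria. Each of the 10 groups held 3 libraries. The labels name 1 control and 1 Etv1 hairpin group, give no stimulation time, and do not say whether a group's libraries are from different animals or cultures. The p-values therefore reflect the spread among these libraries and no more, and that spread may be technical.

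Lysosomes are acidic organelles in which proteases, glycosidases and lipases break down material taken up from outside or delivered by autophagy, and macrophages are rich in them. Enzymes reach them through the Golgi apparatus, membrane glycoproteins such as LAMP1 and LAMP2 line their wall, and the channel TRPML1, the product of Mcoln1, releases calcium from them. TFEB, TFE3 and MITF are related basic helix-loop-helix leucine zipper factors that bind E-box sequences near many lysosomal genes, and mTORC1, a kinase complex docked on the lysosome, holds them in the cytoplasm when nutrients are plentiful. Much of this control acts on where these factors are in the cell and on their phosphorylation, which messenger RNA counts do not show.

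Sequences around the starts of these genes are shown because the 3 factors are members themselves. RefSeq promoters of GRCm38.p6, covering 250 bases before to 50 bases after a start, were available for 26 of the 31 genes. The E-box CACGTG, which reads the same on both strands, was present in 10 of the 26, compared with 8.09% of all 27025 genes with such a window. Its flanked form TCACGTGA, which contains the E-box, was present in 4 of the 26 (Ctsa, Ctsd, Gla and Mcoln1) and in 1.12% of all genes. TCATGTG, searched on both strands, stood in 5 of the 26 and in 4.31% of all genes. The cyclic AMP response element TGACGTCA stood in 2 of the 26, Gusb and Mitf, and in 2.03% of all genes. Its shorter form TGACG, searched on both strands, stood in 7 of the 26 and in 23.0% of all genes. A match is a description of these letters and not a binding site. Capitals mark the E-box, its flanked form in Gla, and the cyclic AMP response element in Mitf, and all are written 5′ to 3′ on the strand of the gene.
Lamp1, chr8:13159094-13159157 (plus strand), with 4 E-boxes: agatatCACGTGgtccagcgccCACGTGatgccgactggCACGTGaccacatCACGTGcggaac
Gla, chrX:134601187-134601239 (minus strand), with 2 flanked E-boxes: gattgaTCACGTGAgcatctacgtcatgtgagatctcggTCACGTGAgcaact
Glb1, chr9:114401013-114401052 (plus strand): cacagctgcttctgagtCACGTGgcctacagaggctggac
Gaa, chr11:119267806-119267845 (plus strand): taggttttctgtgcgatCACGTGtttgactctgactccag
Ctsf, chr19:4855069-4855108 (plus strand): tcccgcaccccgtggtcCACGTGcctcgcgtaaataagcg
Mitf, chr6:97991613-97991654 (plus strand): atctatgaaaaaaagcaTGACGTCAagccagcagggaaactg
These windows lie outside the annotated exons of their genes in GENCODE M21. That of Mitf belongs to a start inside the gene, whose annotation begins at 97807052. Counts per gene do not show which start was used. The other E-box genes were Ctsa, Ctsd, Ctsl, Lgmn and Mcoln1.

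Wild type libraries held 10514496 to 13414293 counts and shRNA libraries 6924973 to 30473040. Etv1 was at 10.6 ± 0.289, 13.9 ± 2.07 and 28.0 ± 5.73 CPM (counts scaled to library size, mean ± SD, n = 3) with the control hairpin and at 3.44 ± 1.23, 5.33 ± 0.581 and 8.89 ± 1.08 CPM with the Etv1 hairpin, unstimulated, with IL-4 and with IL-4 and PGE2. All 9 macrophage markers had counts in every group. The summed level of 8 neutrophil markers was 211 to 336 CPM in wild type libraries and at most 2.29 CPM in shRNA libraries. Markers of lymphocytes and of mast cells and basophils summed to under 1 CPM in every library. Within each of the 3 control shRNA groups, the library numbered 2 correlated least with the others of its group. In bulk RNA, fewer cells of a type and less RNA per cell cannot be told apart.

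The 31 genes together took 6.55 to 6.77% of all counts in unstimulated wild type cells, 5.27 to 5.86% with IL-4, 4.87 to 5.45% with IL-4 and PGE2, and 5.12 to 5.52% with IL-4 and valinomycin. Levels per length, in CPM per kilobase of annotated exon, spanned several orders of magnitude. In unstimulated wild type cells the aspartic protease cathepsin D (Ctsd) was highest at 6535 ± 107 (SD, n = 3). Psap, the precursor of the saposins that present lipids to hydrolases, followed at 4328 ± 72.3, then the cysteine cathepsins Ctss at 3119 ± 69.0 and Ctsb at 2640.0 ± 8.38. These 4 genes made up 78.4% of the summed level per length of the 31. Ctsl stood at 716 ± 19.3 and Lamp1 at 661 ± 1.82 CPM per kilobase. The regulators were far lower, with Mitf at 20.4 ± 0.112, Tfe3 at 18.8 ± 0.258 and Tfeb at 10.4 ± 0.334 CPM per kilobase, and the channel Mcoln1 at 8.20 ± 0.456. Ctse, an aspartic protease, was lowest at 0.142 ± 0.098 and was not tested in wild type libraries because of its low counts. Most neighbours in this order lay more than the sum of their SDs apart, and Hexa and Lgmn, Ctsh and Glb1, Ppt1 and Ctsc, Ctsk and Smpd1, and Smpd1 and Tfeb did not. The same 4 genes led in every wild type group. In the 3 Etv1 shRNA groups Ctsl stood in the place of Ctss among the first 4, whose share was 59.7 to 61.7%. There Ctsl and Ctss lay less than the sum of their SDs apart in each group. With IL-4 they were at 832 ± 147 and 825 ± 159 CPM per kilobase (SD, n = 3). With the control hairpin the first 4 were those of wild type cells, with 69.7 to 72.7%. These orders depend on the division by exon length. In CPM, unstimulated wild type cells had Ctsb at 15974.5 above Ctsd at 15363, and Ctsl at 4646 above Ctss at 4235.

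**Figure D1:**
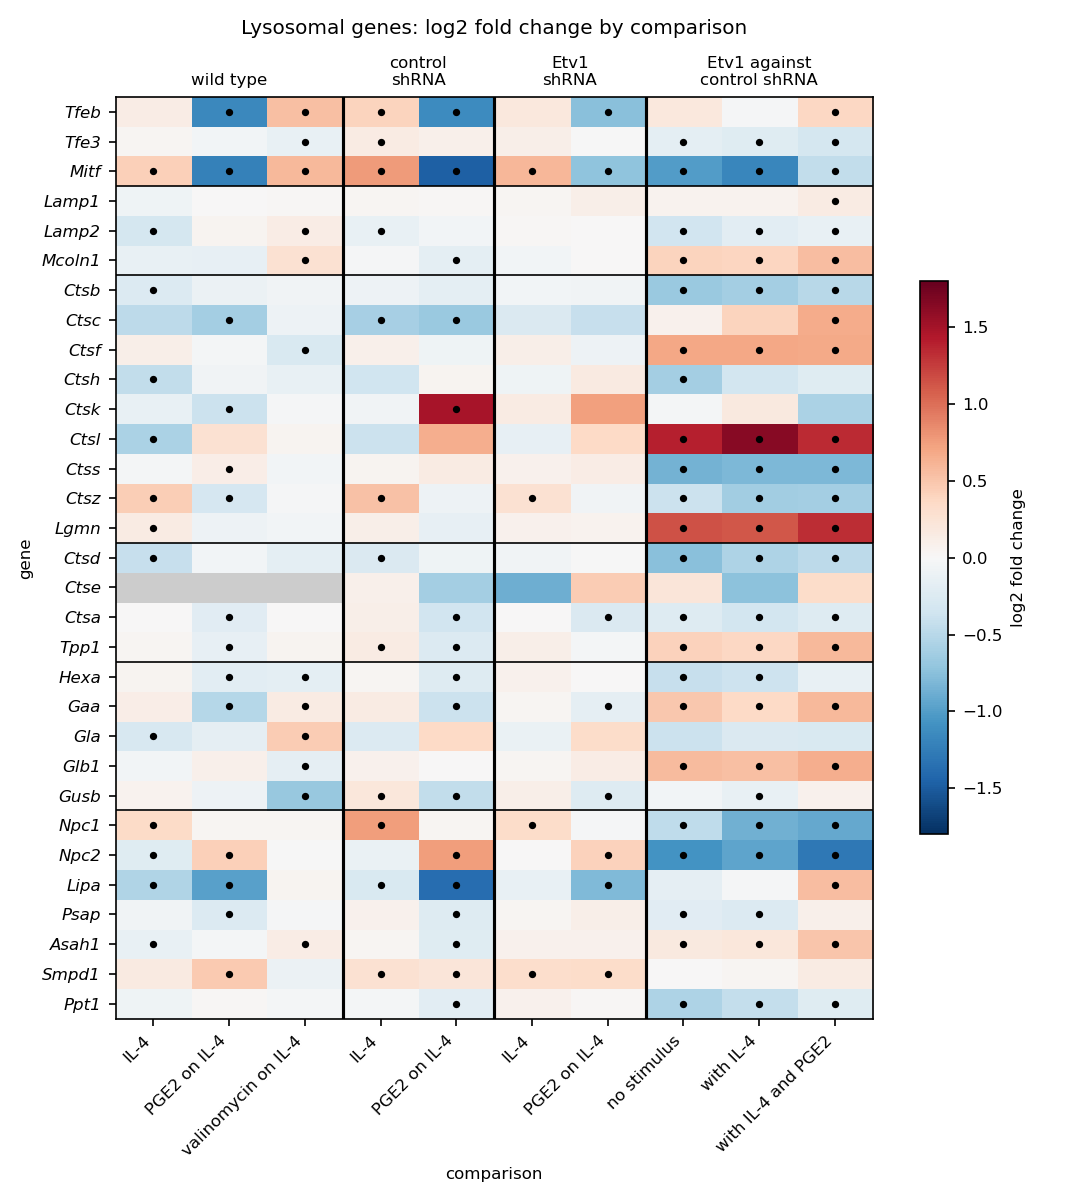
Log2 fold change of the 31 genes (rows, by role from regulators at the top to lipid handling at the bottom) in 10 comparisons (columns), with black dots on the values called at an adjusted p under 0.05 and grey where a gene was not tested. Tfeb and Mitf are blue in all 3 PGE2 columns, and Ctsl and Lgmn are red in the 3 columns of Etv1 against control shRNA.

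IL-4 against no stimulus in wild type cells raised 4 and lowered 9 of the 30 genes tested, and 24% of all 12824 genes tested were higher and 22.4% lower. The median log2 fold change was -0.06 over the members and 0.01 over all genes, and no called member changed by as much as 1 on the log2 scale. Calls required an adjusted p (Benjamini-Hochberg) under 0.05 in edgeR's quasi-likelihood test. The genes raised were Ctsz, Lgmn, Npc1 and Mitf. Those lowered were Ctsb, Ctsd, Ctsh, Ctsl, Lamp2, Gla, Npc2, Lipa and Asah1.

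Cathepsin L, a cysteine endopeptidase, had the largest change. Ctsl (ENSMUSG00000021477, chr13:64359337-64370890, GRCm38) was at 4748, 4683 and 4506 CPM in the unstimulated libraries and at 2675, 3087 and 3583 CPM with IL-4. The groups did not overlap, the IL-4 libraries being the more spread, and the log2 fold change was -0.58 ± 0.14 (SE, adjusted p = 0.00674). Lipa (ENSMUSG00000024781, chr19:34492318-34527474), the acid lipase that hydrolyses cholesteryl esters and triglycerides, went from 1956, 1928 and 1909 to 1352, 1356 and 1281 CPM. All IL-4 libraries were lower, with a log2 fold change of -0.54 ± 0.043 (SE, adjusted p = 2.7e-10). Ctsz (ENSMUSG00000016256, chr2:174427493-174439039), the carboxypeptidase cathepsin Z, went from 914, 896 and 867 to 1129, 1314 and 1211 CPM. Every IL-4 library was higher (0.45 ± 0.049 (SE, adjusted p = 4.89e-08)), against the direction of Ctsl. Ctsd (ENSMUSG00000007891, chr7:142375911-142388038) went from 15592, 15406 and 15092 to 10012, 12061 and 12449 CPM. Its log2 fold change was -0.42 ± 0.094 (SE, adjusted p = 0.0024), with all IL-4 libraries below the unstimulated ones.

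Among the lipid genes, Npc1, the membrane protein that moves cholesterol out of lysosomes, rose (0.35 ± 0.041 (SE, adjusted p = 1.77e-07)), and its soluble partner Npc2 fell (-0.21 ± 0.048 (SE, adjusted p = 0.000827)). Of the regulators, Mitf rose (0.44 ± 0.053 (SE, adjusted p = 3.26e-07)), and Tfeb (0.13 ± 0.068 (SE, adjusted p = 0.121)) and Tfe3 (0.04 ± 0.045 (SE, adjusted p = 0.557)) did not pass the test. Lamp1 (ENSMUSG00000031447, chr8:13159161-13175338), with 4 E-boxes in the window shown above, was at 1773, 1763 and 1768 CPM unstimulated and 1624, 1680.0 and 1706 CPM with IL-4. Its IL-4 libraries were all lower by a small amount that did not pass (-0.08 ± 0.043 (SE, adjusted p = 0.118)), though DESeq2 called it (adjusted p = 0.0445). The rise of Lgmn and the fall of Asah1 were lost when a library was left out: Lgmn without IL-4 library 2 or unstimulated library 3 (log2 fold change from 0.11 to 0.12, adjusted p from 0.0931 to 0.0948), and Asah1 without IL-4 library 2 or 3 or unstimulated library 1 (log2 fold change from -0.12 to -0.10, adjusted p from 0.0563 to 0.0974).

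PGE2 added to IL-4 in wild type cells lowered 11 and raised 3 of the 30 genes tested, compared with 29.5% lower and 29.9% higher among all genes tested. The median was -0.09 over the members and 0.01 over all genes. The largest changes were those of 2 of the 3 regulators and of acid lipase. Mitf (ENSMUSG00000035158, chr6:97807052-98021349) was at 127, 126 and 126 CPM unstimulated, 179.7, 167 and 166 CPM with IL-4 and 71.9, 77.4 and 70.7 CPM with IL-4 and PGE2. The libraries with PGE2 were below both other groups, and the log2 fold change against IL-4 was -1.22 ± 0.056 (SE, adjusted p = 6.71e-15). Tfeb (ENSMUSG00000023990, chr17:47737030-47792419) was at 60.2, 60.3 and 57.0 CPM unstimulated, 60.1, 69.1 and 64.7 CPM with IL-4 and 28.4, 27.9 and 30.8 CPM with PGE2 added. It fell to less than the lowest library of either other group (-1.16 ± 0.074 (SE, adjusted p = 3.04e-12)). Tfe3 (ENSMUSG00000000134, chrX:7762560-7775202) was at 177, 180.0 and 177 CPM with IL-4 and 178, 177 and 164 CPM with PGE2. Those groups overlapped, and its change of -0.04 ± 0.045 (SE, adjusted p = 0.408) did not pass, with an approximate interval of 2 SE from -0.13 to 0.05.

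Lipa went from 1352, 1356 and 1281 CPM with IL-4 to 655, 691 and 672 CPM with PGE2. The PGE2 libraries lay far below both the IL-4 and the unstimulated ones (-0.98 ± 0.044 (SE, adjusted p = 4.32e-15)). The glycosidases that fell were Gaa, the acid alpha-glucosidase that degrades glycogen (-0.51 ± 0.054 (SE, adjusted p = 1.96e-08)), and Hexa, the alpha subunit of beta-hexosaminidase (-0.19 ± 0.046 (SE, adjusted p = 0.00107)). The proteases Ctsa, Ctsc, Ctsk, Ctsz and Tpp1 and the saposin precursor Psap also fell, by 0.15 to 0.61 on the log2 scale. Genes raised were Smpd1, the acid sphingomyelinase (0.47 ± 0.062 (SE, adjusted p = 8.01e-07)), Npc2 (0.43 ± 0.048 (SE, adjusted p = 5.55e-08)) and Ctss (0.13 ± 0.054 (SE, adjusted p = 0.0495)). Npc1 was not called (0.03 ± 0.041 (SE, adjusted p = 0.527)). Lamp1 was at 1606, 1679 and 1731 CPM with PGE2, overlapping the IL-4 libraries, with an interval of its log2 fold change from -0.08 to 0.09. Mcoln1 (ENSMUSG00000004567, chr8:3500457-3515232) went from 51.0, 63.1 and 55.3 to 49.3, 50.5 and 53.3 CPM, and these overlapping groups gave -0.15 ± 0.076 (SE, adjusted p = 0.0953). Some calls were lost when 1 library was left out: Ctss was not called without IL-4 library 1 or 3 or IL-4 with PGE2 library 2 or 3 (log2 fold change from 0.07 to 0.13, adjusted p from 0.0762 to 0.307), Ctsc without IL-4 library 1 or 2 or IL-4 with PGE2 library 3 (log2 fold change from -0.53 to -0.49, adjusted p from 0.0755 to 0.0797), and Ctsk without IL-4 library 3 or IL-4 with PGE2 library 1 (log2 fold change from -0.33 to -0.25, adjusted p from 0.0512 to 0.105).

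**Figure D2:**
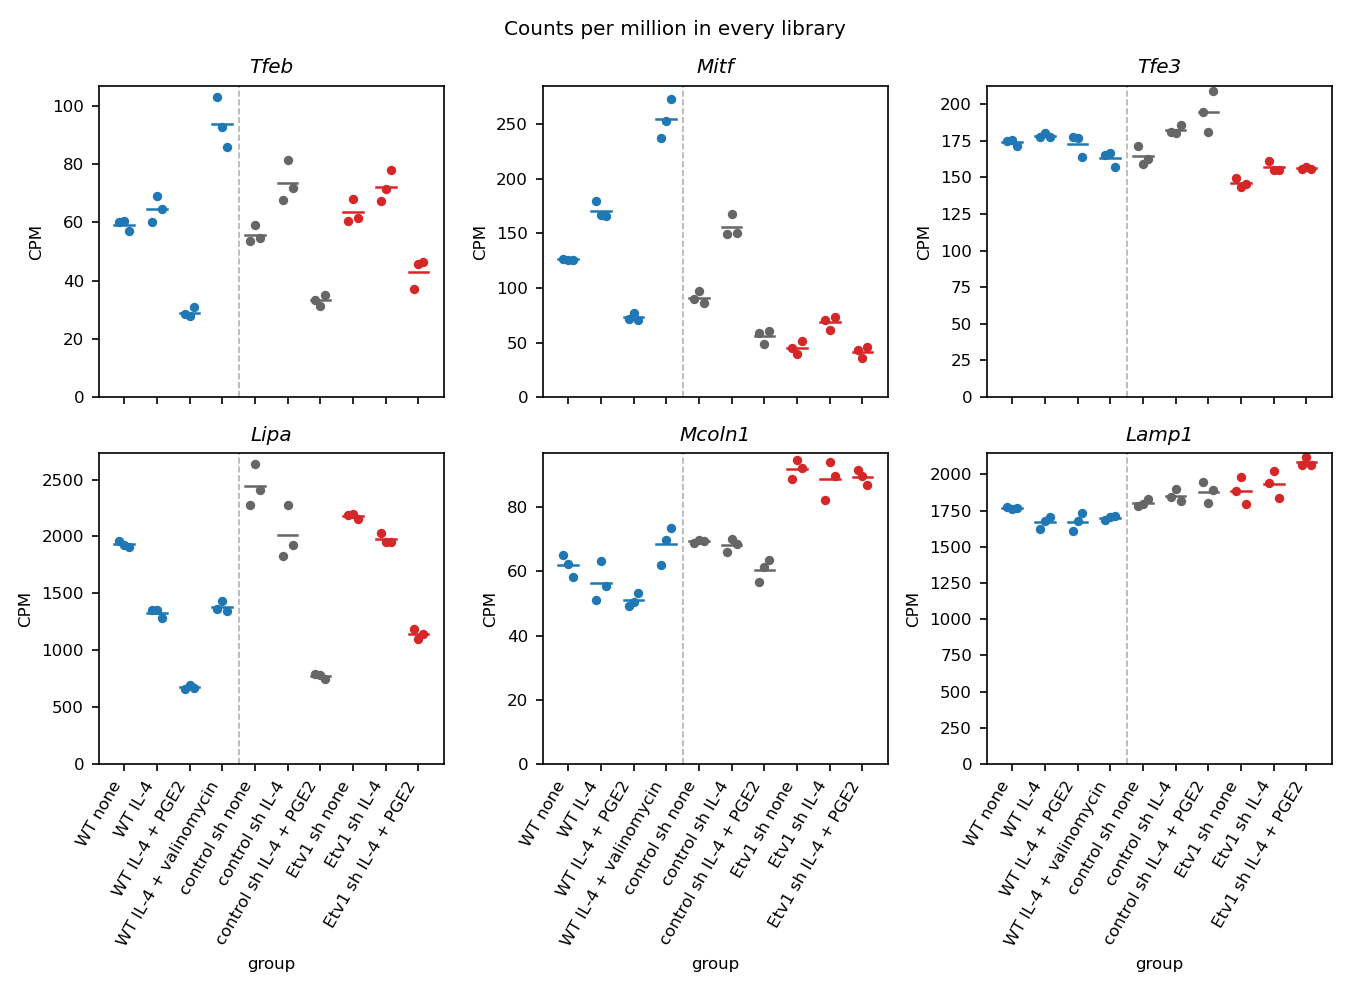
Levels in CPM of Tfeb, Mitf, Tfe3, Lipa, Mcoln1 and Lamp1 in each of the 3 libraries of 10 groups (points; short lines are means), with the wild type experiment left and the shRNA experiment right of the dashed line. Tfeb and Mitf are lowest with PGE2 and highest with valinomycin among wild type groups, and Tfe3 stays between 157 and 180.0 CPM there.

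Valinomycin added to IL-4 raised 7 and lowered 5 of the 30 genes tested in wild type cells, and 19.4% of all genes tested were higher and 18.9% lower. The median over the members was -0.02, and -0.03 over all genes. The regulators Mitf and Tfeb rose. Mitf was at 237, 253 and 273 CPM with valinomycin, above every library of the other 3 wild type groups (0.58 ± 0.052 (SE, adjusted p = 5.86e-09) against IL-4). Tfeb was at 103, 92.8 and 86.0 CPM, likewise above all others (0.54 ± 0.065 (SE, adjusted p = 5.56e-07)). Tfe3 was at 165, 167 and 157 CPM and was called lower (-0.13 ± 0.045 (SE, adjusted p = 0.026)), but not without IL-4 library 2 or 3 or IL-4 with valinomycin library 1, 2 or 3 (log2 fold change from -0.13 to -0.09, adjusted p from 0.0564 to 0.164), nor by DESeq2.

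The largest single change belonged to Gusb (ENSMUSG00000025534, chr5:129989011-130003049), the beta-glucuronidase. It was at 761, 768 and 764 CPM with IL-4 and 473, 488 and 474 CPM with valinomycin. These tight groups were well separated, with -0.68 ± 0.044 (SE, adjusted p = 2.6e-11). Another glycosidase, Gla, the alpha-galactosidase A whose 2 flanked E-boxes are printed above, rose (0.45 ± 0.084 (SE, adjusted p = 0.00069)). Mcoln1 was at 62.0, 69.7 and 73.6 CPM with valinomycin, where 1 IL-4 library lay above the lowest of these (0.27 ± 0.073 (SE, adjusted p = 0.00488)). Smaller rises were called for Lamp2, Gaa and Asah1 (0.13 to 0.15), and falls for Hexa, Glb1 and Ctsf (-0.16 to -0.27). Of these, the calls of Asah1, Ctsf, Gaa, Glb1 and Lamp2 were each lost when a library was left out. Asah1 was not called without IL-4 library 2 or 3 (log2 fold change from 0.12 to 0.12, adjusted p from 0.0644 to 0.0778), Gaa without IL-4 library 1 or 3 or IL-4 with valinomycin library 3 (log2 fold change from 0.12 to 0.16, adjusted p from 0.0521 to 0.0888), and Lamp2 without IL-4 library 2 or 3 or IL-4 with valinomycin library 3 (log2 fold change from 0.11 to 0.12, adjusted p from 0.0716 to 0.107). Ctsf was not called without IL-4 library 2 or 3 or IL-4 with valinomycin library 1 or 2 (log2 fold change from -0.23 to -0.21, adjusted p from 0.122 to 0.166), and Glb1 without IL-4 library 2 or 3 or IL-4 with valinomycin library 1 (log2 fold change from -0.15 to -0.08, adjusted p from 0.0619 to 0.243). Without IL-4 library 2 only 7 members were called, and without library 3 only 6. Lamp1 was at 1682, 1704 and 1714 CPM and Ctsd at 9209, 10298 and 11092 CPM, and neither passed (0.03 and -0.17).

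PGE2 and valinomycin were each set against the same IL-4 libraries, so the direct contrast between them is given. With PGE2, 13 members were lower and 6 higher than with valinomycin, compared with 31.5% and 31.7% of all genes tested. Mitf (-1.79 ± 0.056 (SE, adjusted p = 3.64e-18)), Tfeb (-1.70 ± 0.072 (SE, adjusted p = 1.06e-15)) and Lipa (-1.04 ± 0.044 (SE, adjusted p = 1.21e-15)) differed most. Mcoln1 (-0.42 ± 0.075 (SE, adjusted p = 3.45e-05)), Gla (-0.62 ± 0.085 (SE, adjusted p = 1.61e-05)) and Gaa (-0.67 ± 0.054 (SE, adjusted p = 1.6e-10)) were also lower with PGE2. Gusb (0.59 ± 0.044 (SE, adjusted p = 4.62e-11)), Smpd1 (0.57 ± 0.063 (SE, adjusted p = 3.03e-08)) and Npc2 (0.44 ± 0.049 (SE, adjusted p = 3.44e-08)) were higher. Of the other calls, those of Ctsc, Ctsf, Ctsk and Ctss were lost without 1 or more libraries (adjusted p up to 0.233).

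With the control hairpin, IL-4 raised 8 and lowered 4 of 31 members, compared with 17.2% and 17.1% of all 12382 genes tested in the shRNA experiment. The replicate numbers were taken to pair the libraries within each hairpin. A fit with the replicate number as a block called 19 members here, 10 higher and 9 lower, compared with 21.1% and 21.3% of all genes in that fit. Mitf rose from 89.9, 97.0 and 86.6 to 149, 168 and 150.4 CPM (0.77 ± 0.10 (SE, adjusted p = 7.13e-06)). The separation was complete, as in wild type cells. Npc1 (0.75 ± 0.063 (SE, adjusted p = 1.1e-08)) and Ctsz (0.52 ± 0.083 (SE, adjusted p = 4.35e-05)) rose in both experiments too, so that 3 of the 4 members raised in wild type cells were among the 8 raised here. Ctsd, Lamp2 and Lipa fell in both, which is 3 of 9 and 3 of 4, and no member was called in opposite directions. The share of all genes tested that IL-4 changed alike in both was not counted. Tfeb rose here (0.40 ± 0.085 (SE, adjusted p = 0.00106)). Ctsl went from 1714, 3098 and 1987 to 1205, 2539.6 and 1467 CPM, with the library numbered 2 high in each group. It was not called (-0.38 ± 0.30 (SE, adjusted p = 0.363)), but was called lower in the fit with the block (-0.41, adjusted p = 1.4e-07). The calls of Ctsc, Ctsd, Gusb, Lamp2, Tfe3 and Tpp1 were each lost without at least 1 library (adjusted p up to 0.179), that of Ctsd without IL-4 control shRNA library 1 or 3 or unstimulated control shRNA library 2 (log2 fold change from -0.21 to -0.19, adjusted p from 0.148 to 0.179).

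PGE2 added to IL-4 with the control hairpin lowered 13 and raised 3 of 31 members, compared with 30.1% and 29.3% of all genes tested, with medians of -0.15 and -0.01. Mitf was at 58.9, 48.2 and 60.8 CPM and fell below every IL-4 and unstimulated library (-1.47 ± 0.10 (SE, adjusted p = 1.3e-09)). Tfeb was at 33.3, 31.3 and 34.9 CPM against 67.6, 81.3 and 71.8 CPM with IL-4 (-1.14 ± 0.089 (SE, adjusted p = 1.6e-09)). Lipa went from 1828, 2278 and 1928 to 794, 787 and 750.1 CPM, the groups being far apart (-1.37 ± 0.071 (SE, adjusted p = 4.54e-12)). Genes that fell with PGE2 in both experiments were Ctsa, Ctsc, Hexa, Gaa, Lipa, Psap, Tpp1, Tfeb and Mitf, 9 of the 11 in wild type and 9 of the 13 here. Npc2 and Smpd1 rose in both, 2 of 3 and 2 of 3. The share of all genes tested that PGE2 changed alike in both experiments was not counted. Ctsl, at 2214, 3635 and 2384 CPM, again had its highest library numbered 2. It was not called (0.66 ± 0.30 (SE, adjusted p = 0.0737)), and was called higher with the block (0.70, adjusted p = 4.02e-12). Mcoln1, at 66.1, 70.3 and 68.5 CPM with IL-4 and 56.6, 61.3 and 63.5 CPM with PGE2, was called lower by a small amount (-0.17 ± 0.057 (SE, adjusted p = 0.0153)). That call was lost without IL-4 control shRNA library 2 or IL-4 with PGE2 control shRNA library 1 (log2 fold change from -0.15 to -0.12, adjusted p from 0.0558 to 0.108), and under DESeq2.

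Whether an effect differed between the control hairpin and wild type cells was tested in 1 fit of all libraries. Transduction, the markers of neutrophils, which were nearly absent from the shRNA libraries, and other differences between the experiments cannot be told apart in it. The IL-4 effect was higher with the control hairpin for 2 members and lower for none, compared with 5.17% and 4.01% of 13358 genes tested. That count of 2 was 4 with the size factors of DESeq2, 5 with DESeq2, 4 with the replicate block, and 1 to 4 without single libraries. These were Npc1 (difference of log2 fold changes 0.42 ± 0.075 (SE, adjusted p = 0.000287)) and Lipa (0.28 ± 0.083 (SE, adjusted p = 0.0301)), the latter lost without IL-4 control shRNA library 2, unstimulated control shRNA library 1 or 3, IL-4 library 3 or unstimulated library 1 or 2 (log2 fold change from 0.19 to 0.28, adjusted p from 0.0585 to 0.139). The PGE2 effect was higher for 2 members and lower for 5, compared with 8.52% and 10.5% of genes. Those 7 were 4 with the size factors of DESeq2, 4 with the contrast's groups alone, and 4 to 6 without single libraries. Ctsk, the cathepsin of bone-resorbing cells, had the largest difference (1.84 ± 0.38 (SE, adjusted p = 0.000897)). It fell in wild type cells (-0.38 ± 0.12 (SE, adjusted p = 0.0102)) and rose with the control hairpin (1.49 ± 0.38 (SE, adjusted p = 0.00245)), there on 50 counts over the IL-4 group and 196 over the PGE2 group. Library sizes differed, and the scaled levels of Ctsk were 1.68 ± 0.893 and 4.64 ± 1.49 CPM in those groups (SD, n = 3). The summed level of 8 osteoclast markers, which does not hold Ctsk, was 167 to 227 CPM with IL-4 and 275 to 400.1 CPM with PGE2 in control shRNA libraries, and 339.7 to 372 and 492 to 561 CPM in wild type libraries. Of the 6 that were tested, 1 rose and 1 fell with PGE2 in the control shRNA libraries, Itgb3 (1.202) and Ocstamp (-1.89), and 3 rose and 2 fell in wild type libraries. Their part in the result was not tested. Gusb fell with the control hairpin and was not called in wild type cells (difference -0.37 ± 0.074 (SE, adjusted p = 0.000416)). Lipa (-0.40 ± 0.083 (SE, adjusted p = 0.000728)) fell more with the control hairpin, and Npc2 (0.30 ± 0.087 (SE, adjusted p = 0.0129)) rose more. The differences of Asah1, Smpd1 and Ppt1 (-0.20 to -0.26) were lost when any one of 11, 12 and 11 of the 12 libraries was left out.

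Within cells carrying the Etv1 hairpin, IL-4 raised 4 members, Ctsz, Npc1, Smpd1 and Mitf, and lowered none, compared with 10.9% and 7.16% of all genes tested. The fit with the replicate block called 8, of which 5 rose and 3 fell, compared with 14.4% and 11% of all genes. Mitf went from 45.3, 39.7 and 51.1 to 71.1, 61.8 and 73.1 CPM, without overlap (0.60 ± 0.11 (SE, adjusted p = 0.000552)). The call of Ctsz was lost without IL-4 Etv1 shRNA library 2 or unstimulated Etv1 shRNA library 1 or 3 (log2 fold change from 0.19 to 0.24, adjusted p from 0.108 to 0.164). PGE2 lowered 6 members in these cells, Ctsa, Gaa, Gusb, Lipa, Tfeb and Mitf, and raised Npc2 and Smpd1, compared with 22.8% and 24.6% of genes. The fit with the block called 17, of which 10 rose and 7 fell, compared with 28.2% and 26.6% of all genes. Tfeb went from 67.5, 71.4 and 78.0 to 37.1, 45.8 and 46.3 CPM (-0.75 ± 0.088 (SE, adjusted p = 7.99e-07)). Mitf, at 42.9, 35.9 and 45.5 CPM with PGE2, overlapped its unstimulated libraries (-0.73 ± 0.11 (SE, adjusted p = 2.44e-05)). Lipa went from 2032, 1953 and 1954 to 1189, 1096 and 1142 CPM (-0.79 ± 0.070 (SE, adjusted p = 2.14e-08)). The call of Gaa was lost without IL-4 Etv1 shRNA library 1 or 3 or IL-4 with PGE2 Etv1 shRNA library 2 or 3 (log2 fold change from -0.15 to -0.13, adjusted p from 0.09 to 0.142). Over the 3 PGE2 comparisons, which share no libraries, Ctsa, Gaa, Lipa, Tfeb and Mitf fell and Npc2 and Smpd1 rose in every one. The share of all genes tested that did so was not counted.

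**Figure D3:**
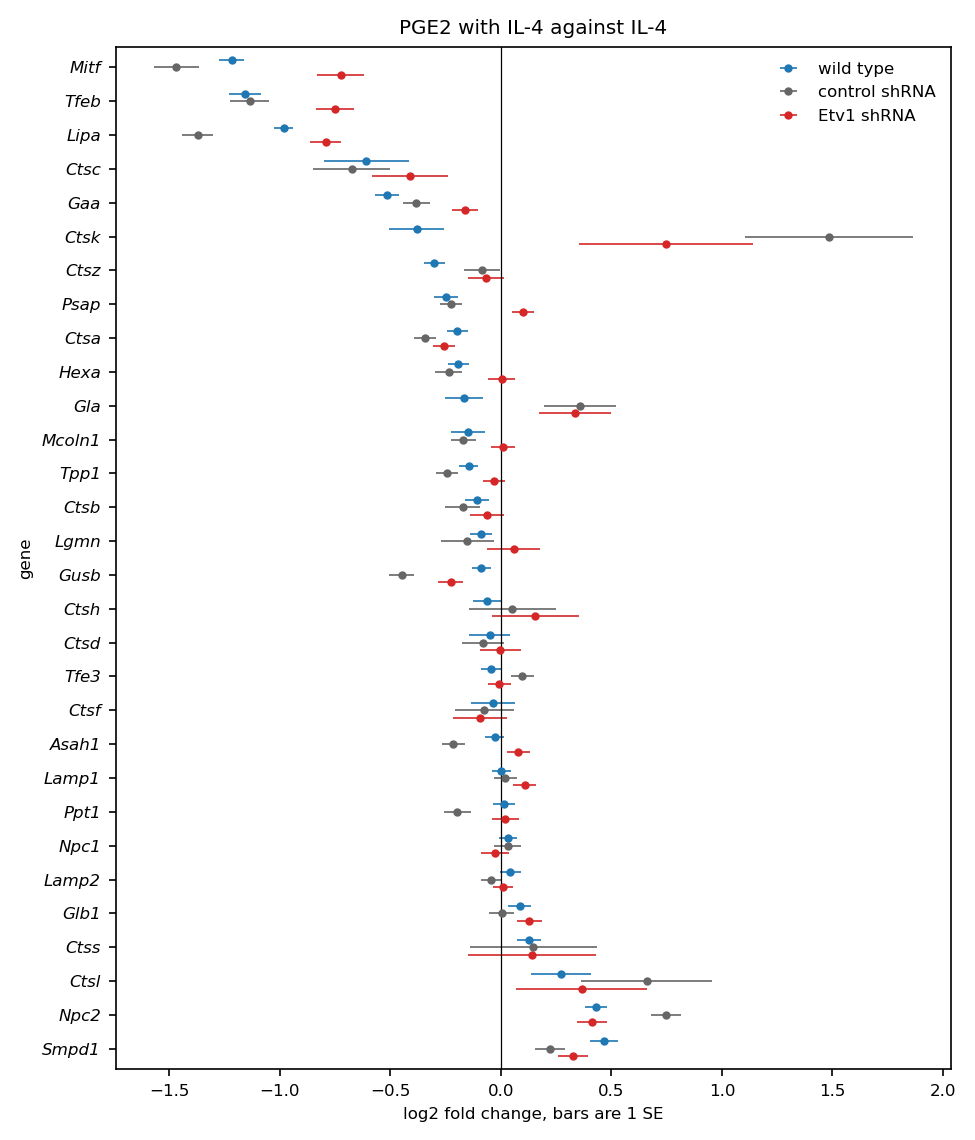
Log2 fold change of IL-4 with PGE2 against IL-4 for 30 members (rows, ordered by the wild type value) in wild type cells, control shRNA cells and Etv1 shRNA cells, with bars of 1 SE. Mitf, Tfeb and Lipa lie furthest to the left in all 3, and Ctsk lies left of 0 in wild type and right of 0 in shRNA cells.

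Etv1 against control shRNA raised 8 and lowered 14 of 31 members without stimulus, compared with 24.9% and 26.8% of all genes tested. It raised 8 and lowered 14 with IL-4, compared with 25.4% and 25.6%, and raised 12 and lowered 11 with IL-4 and PGE2, compared with 27.6% and 26.7%. The member medians were -0.16, -0.19 and 0.08, and those of all genes between -0.01 and 0. The 3 comparisons share no libraries. However, same-numbered libraries within each hairpin deviated together, so the comparisons may not be independent of each other. How many of all genes tested were called alike in all 3 comparisons was not counted. Raised in every one were Ctsf, Ctsl, Lgmn, Gaa, Glb1, Asah1, Tpp1 and Mcoln1, which is 8 of 8, 8 of 8 and 8 of 12. Lowered in every one were Ctsa, Ctsb, Ctsd, Ctss, Ctsz, Lamp2, Npc1, Npc2, Ppt1, Tfe3 and Mitf, which is 11 of 14, 11 of 14 and 11 of 11. Among these, the unstimulated call of Asah1 was lost without unstimulated control shRNA library 1 (log2 fold change 0.14, adjusted p = 0.0553), and the call of Lamp2 with PGE2 without IL-4 with PGE2 control shRNA library 3 or IL-4 with PGE2 Etv1 shRNA library 2 (log2 fold change from -0.12 to -0.12, adjusted p from 0.0548 to 0.069). Of the members called in 1 condition, Ctsh, lower without stimulus, was lost without unstimulated control shRNA library 2 or unstimulated Etv1 shRNA library 1 or 3 (log2 fold change from -0.57 to -0.48, adjusted p from 0.06 to 0.08), and Gusb, lower with IL-4, without IL-4 control shRNA library 1 or 3 or IL-4 Etv1 shRNA library 1, 2 or 3 (log2 fold change from -0.15 to -0.11, adjusted p from 0.068 to 0.179). A single hairpin group against Etv1 is named, so effects of the lost Etv1 and other effects of this hairpin cannot be told apart. Summed macrophage markers were also lower with it, at 9894 to 11028 CPM against 15876 to 20854 CPM with the control hairpin, and 7, 7 and 6 of the 9 fell in the 3 conditions, while Adgre1, the gene of the F4/80 antigen, rose in each (0.997, 0.79 and 0.91). Of 6 osteoclast markers tested, 5, 3 and 3 rose and 0, 1 and 0 fell. Acp5, Dcstamp and Mmp9 rose each time, and the gene that fell with IL-4 was Itgb3 (-0.94 ± 0.25 (SE, adjusted p = 0.00708)). Their part in the results below was not tested.

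Ctsl and Lgmn rose most. Ctsl was at 5875, 6882 and 5236 CPM with the Etv1 hairpin, against 1714, 3098 and 1987 CPM with the control hairpin, in unstimulated cells (1.40 ± 0.30 (SE, adjusted p = 0.00169)). With IL-4 it was at 5326, 6389 and 4481 CPM (1.64 ± 0.30 (SE, adjusted p = 0.000593)), and with IL-4 and PGE2 at 6869.5, 7807 and 6186 CPM (1.34 ± 0.30 (SE, adjusted p = 0.0021)). Every Etv1 library exceeded every control library of its condition, including the high ones numbered 2. Lgmn (ENSMUSG00000021190, chr12:102394084-102439813), the asparaginyl endopeptidase legumain, which processes cathepsins, was at 579, 473 and 597 CPM with the control hairpin and 1328, 1132 and 1175 CPM with the Etv1 hairpin in unstimulated cells (1.14 ± 0.12 (SE, adjusted p = 1.08e-06)). With IL-4 it went from 611, 525 and 629 to 1385, 1242 and 1201 CPM (1.12 ± 0.12 (SE, adjusted p = 1.38e-06)), and with PGE2 from 589, 425 and 574 to 1424, 1209.6 and 1351 CPM (1.33 ± 0.12 (SE, adjusted p = 1.66e-07)). No libraries overlapped. Smaller rises in the unstimulated cells were those of the protease Ctsf (0.69 ± 0.12 (SE, adjusted p = 0.00012)), the beta-galactosidase Glb1 (0.57 ± 0.057 (SE, adjusted p = 8.75e-08)), Gaa (0.48 ± 0.061 (SE, adjusted p = 2.11e-06)) and the tripeptidyl peptidase Tpp1 (0.42 ± 0.050 (SE, adjusted p = 1.03e-06)).

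Mcoln1 rose in each condition. It was at 68.8, 69.9 and 69.3 CPM with the control hairpin and at 88.8, 94.6 and 92.1 CPM with the Etv1 hairpin in unstimulated cells (0.41 ± 0.056 (SE, adjusted p = 5.43e-06)). The groups were clear of each other here and in the other 2 conditions, where the Etv1 libraries were at 82.4, 94.2 and 89.9 CPM with IL-4 (0.38 ± 0.056 (SE, adjusted p = 1.41e-05)) and 91.5, 89.8 and 86.9 CPM with PGE2 (0.56 ± 0.056 (SE, adjusted p = 8.73e-08)).

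Npc2 (ENSMUSG00000021242, chr12:84754562-84773152), the soluble cholesterol-binding protein, had the largest fall among the members without stimulus and with PGE2, and that of Mitf was larger with IL-4. It was at 843, 987 and 908 CPM with the control and 419.7, 447 and 432 CPM with the Etv1 hairpin, unstimulated (-1.08 ± 0.069 (SE, adjusted p = 2.18e-10)). With IL-4 it was at 764, 926 and 824 and 434, 460.3 and 404 CPM (-0.95 ± 0.069 (SE, adjusted p = 1.33e-09)), and with PGE2 at 1375, 1438 and 1401 and 574, 579 and 576 CPM (-1.28 ± 0.069 (SE, adjusted p = 1.85e-11)). The groups lay far apart in each condition, and PGE2 raised the level with either hairpin. Npc1, its membrane partner, fell as well (-0.45 ± 0.063 (SE, adjusted p = 7.12e-06), -0.87 ± 0.063 (SE, adjusted p = 1.38e-09) and -0.93 ± 0.063 (SE, adjusted p = 4.61e-10)).

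Ctsd was at 11768, 13408 and 11994 CPM with the control and 7385, 7678 and 7024 CPM with the Etv1 hairpin in unstimulated cells (-0.75 ± 0.094 (SE, adjusted p = 1.83e-06)). With IL-4 it was at 9267, 12076 and 9607 and 7004, 7462 and 6597 CPM (-0.56 ± 0.094 (SE, adjusted p = 6.22e-05)), and with PGE2 at 9172, 11120.0 and 8990.5 and 6849.8, 7366 and 6810.2 CPM (-0.48 ± 0.094 (SE, adjusted p = 0.000254)). All Etv1 libraries were below all control libraries, of which the one numbered 2 was highest each time. Ctsb fell as well (-0.66 ± 0.078 (SE, adjusted p = 7.56e-07) unstimulated). Ctss was also called lower in the 3 conditions (-0.85 ± 0.29 (SE, adjusted p = 0.0269), -0.81 ± 0.29 (SE, adjusted p = 0.0339) and -0.81 ± 0.29 (SE, adjusted p = 0.0305)), but those calls were lost in some runs that left out 1 library. Unstimulated, Ctss was not called without unstimulated control shRNA library 2 or unstimulated Etv1 shRNA library 1 or 3 (log2 fold change from -0.78 to -0.55, adjusted p from 0.0822 to 0.139). With IL-4 it was not called without IL-4 control shRNA library 2 or IL-4 Etv1 shRNA library 1 or 3 (log2 fold change from -0.76 to -0.50, adjusted p from 0.0936 to 0.17), and with PGE2 without IL-4 with PGE2 control shRNA library 2 or IL-4 with PGE2 Etv1 shRNA library 1 or 3 (log2 fold change from -0.77 to -0.58, adjusted p from 0.0854 to 0.132).

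Among the regulators, Mitf was lower with the Etv1 hairpin in each condition: unstimulated at 45.3, 39.7 and 51.1 against 89.9, 97.0 and 86.6 CPM (-1.005 ± 0.11 (SE, adjusted p = 4.04e-07)), with IL-4 (-1.18 ± 0.10 (SE, adjusted p = 4.28e-08)) and with PGE2 (-0.44 ± 0.11 (SE, adjusted p = 0.00222)). No libraries overlapped. Tfe3 was at 171, 159 and 163, 181, 180.5 and 186 and 195, 181 and 209 CPM in the libraries of the 3 control conditions in order of stimulation, and at 149.5, 144 and 145, 161, 155 and 155 and 156, 157 and 155 CPM with the Etv1 hairpin. Its falls were small (-0.17, -0.22 and -0.32), the first not called without unstimulated control shRNA library 1 (log2 fold change -0.14, adjusted p = 0.0533). Tfeb, at 60.7, 68.2 and 61.6 CPM unstimulated with the Etv1 hairpin and 53.6, 59.3 and 54.7 with the control, was called higher under PGE2 (0.37 ± 0.091 (SE, adjusted p = 0.00208)) and not in the other conditions (0.19 and -0.02). Lamp1 was at 1782, 1796 and 1826 CPM with the control and 1883, 1981 and 1795 CPM with the Etv1 hairpin unstimulated. It was called under PGE2 alone, at 1945, 1802 and 1891 and 2063, 2121 and 2065 CPM (0.15 ± 0.052 (SE, adjusted p = 0.0205)), and not without IL-4 with PGE2 control shRNA library 2 or IL-4 with PGE2 Etv1 shRNA library 2 (log2 fold change from 0.12 to 0.13, adjusted p from 0.0698 to 0.0762).

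**Figure D4:**
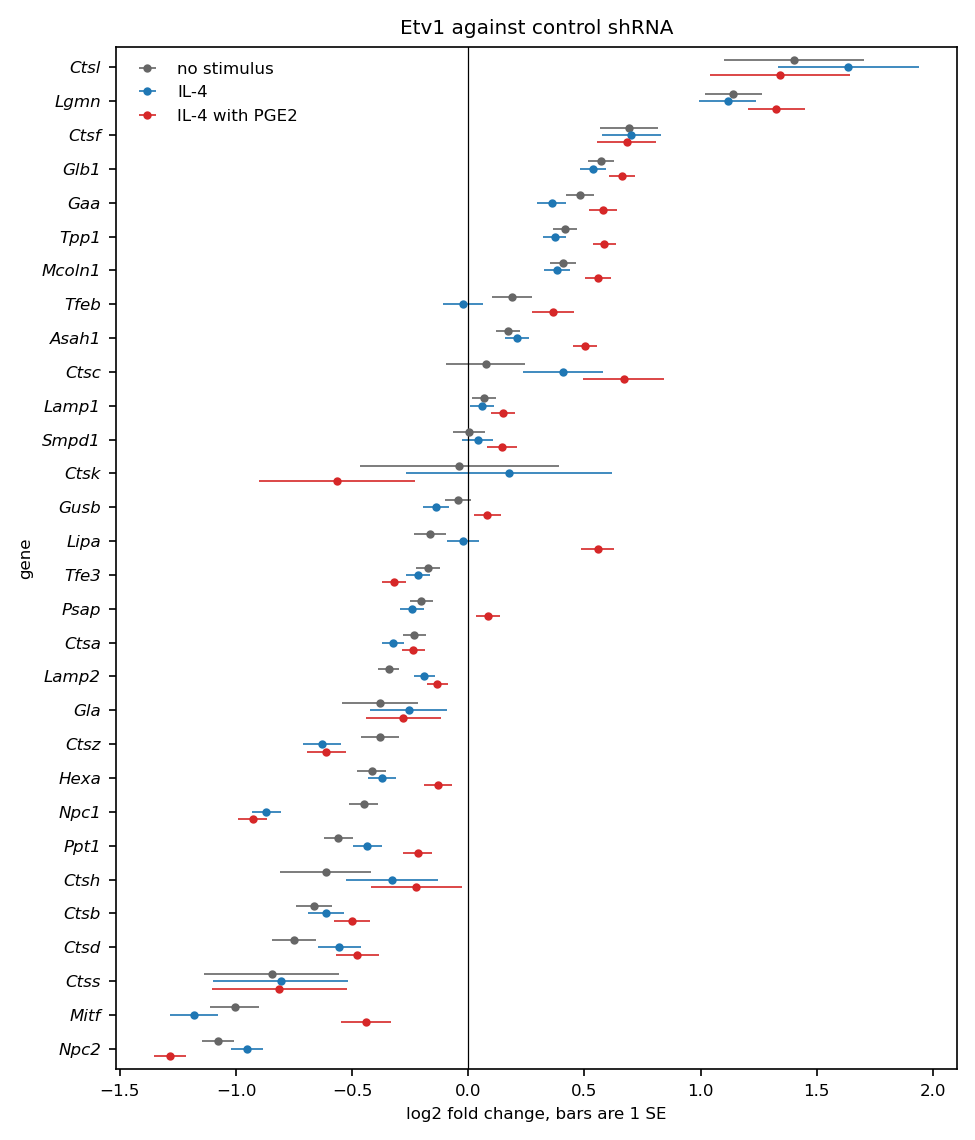
Log2 fold change of Etv1 against control shRNA for 30 members (rows, ordered by the unstimulated value), without stimulus, with IL-4 and with IL-4 and PGE2, with bars of 1 SE. Ctsl and Lgmn lie right of 1 in all 3 conditions, and Npc2 lies near -1 or below.

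**Figure D5:**
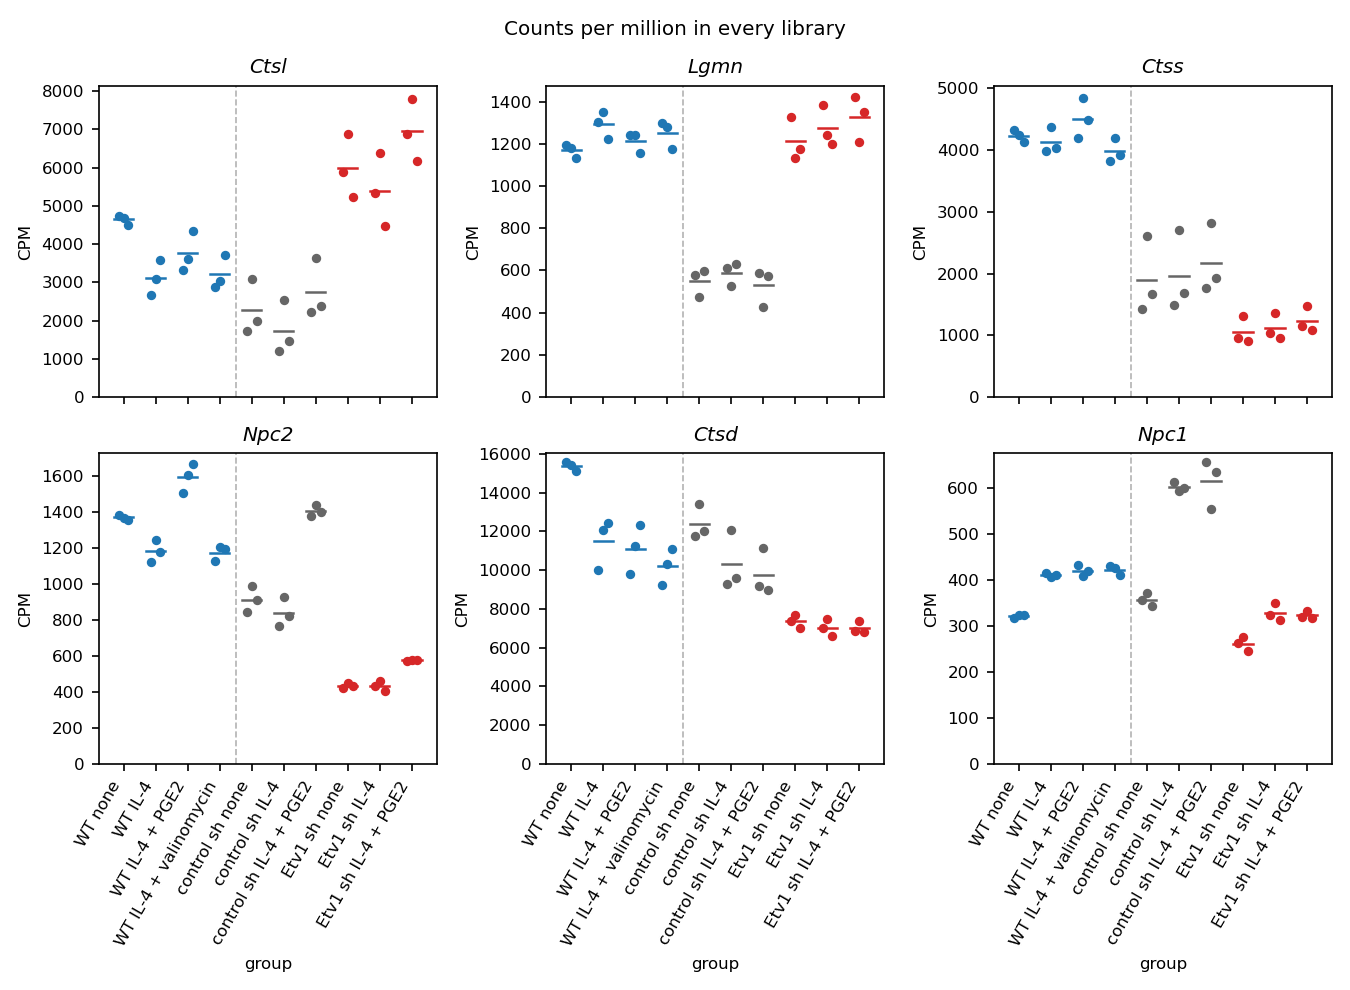
Levels in CPM of Ctsl, Lgmn, Ctss, Npc2, Ctsd and Npc1 in each of the 3 libraries of 10 groups (points; short lines are means), with the wild type experiment left and the shRNA experiment right of the dashed line. Ctss with the control hairpin has 1 library far above the other 2 in each condition, the one numbered 2.

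Whether the hairpin altered the response was tested as a difference of differences. The IL-4 effect was lower with the Etv1 hairpin for 1 member and higher for none, compared with 1.81% and 2.71% of all genes tested. This was Npc1, which rose by 0.75 with the control and 0.33 with the Etv1 hairpin (difference -0.42 ± 0.089 (SE, adjusted p = 0.00843)). The fit with the replicate block called 6 members, 4 higher and 2 lower, compared with 6.82% and 4.59% of all genes. The PGE2 effect was higher for 5 members and lower for 1, compared with 6.03% and 5.58% of genes, and with the block 12 were higher and 2 lower, compared with 11.1% and 9.59%. Mitf fell by 1.47 with the control and by 0.73 on the log2 scale with the Etv1 hairpin (difference 0.74 ± 0.15 (SE, adjusted p = 0.00294)). Lipa followed the same order (-1.37 and -0.79, difference 0.58 ± 0.098 (SE, adjusted p = 0.000636)). Psap (0.33 ± 0.072 (SE, adjusted p = 0.00498)) and the acid ceramidase Asah1 (0.30 ± 0.073 (SE, adjusted p = 0.0109)) fell with the control hairpin. With the Etv1 hairpin neither passed, and their means were higher with PGE2 than with IL-4 alone. Psap was at 4283 ± 86.5 CPM with IL-4 and 4594 ± 106 CPM with PGE2 added there (SD, n = 3). Asah1 was at 404 ± 7.13 and 427 ± 10.9 CPM (SD, n = 3). Tfeb had 0.39 ± 0.12 (SE, adjusted p = 0.0496), which was not called by DESeq2 (adjusted p = 0.0668), without the control shRNA libraries numbered 2 (0.25, adjusted p = 0.186), or without IL-4 control shRNA library 2 or 3, IL-4 with PGE2 control shRNA library 1, 2 or 3, IL-4 Etv1 shRNA library 1 or 2 or IL-4 with PGE2 Etv1 shRNA library 2 or 3 (log2 fold change from 0.31 to 0.43, adjusted p from 0.0561 to 0.136). Npc2 rose less with the Etv1 hairpin (-0.33 ± 0.097 (SE, adjusted p = 0.0291)), a call lost without IL-4 control shRNA library 1 or 3, IL-4 with PGE2 control shRNA library 3, IL-4 Etv1 shRNA library 1 or 2 or IL-4 with PGE2 Etv1 shRNA library 1, 2 or 3 (log2 fold change from -0.34 to -0.26, adjusted p from 0.0505 to 0.0944). The level of Etv1 rose with PGE2 in both hairpin groups, as given above.

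Genes with and without an E-box in the promoter window were set side by side as a description. With the Etv1 hairpin in unstimulated cells, 6 of the 10 E-box genes rose and 2 fell, with a median log2 fold change of 0.44. Of the 16 without one, 1 rose and 9 fell, with a median of -0.19. Of all 1141 tested genes with an E-box in such a window, 28.5% rose and 27.6% fell (median 0.002), and of the 8334 without one 25.5% rose and 27.6% fell (-0.02). With IL-4 the medians of the members were 0.37 and -0.20, and with PGE2 0.57 and -0.13. Over all tested genes with and without an E-box they were -0.016 and -0.0091 with IL-4, and 0.0165 and 0.0038 with PGE2. For valinomycin in wild type cells, 3 of 10 E-box genes rose and 2 fell (median 0.02), and 3 of 16 others rose and 3 fell (-0.02). For PGE2 in wild type cells, none of the 10 rose and 2 fell (median -0.07), against 3 and 9 of 16 (-0.17). Over all genes tested, 25.1% with an E-box rose and 18.8% fell with valinomycin, and 29.1% rose and 38% fell with PGE2, compared with 20.1%, 20%, 32.1% and 29.2% without one. In wild type cells, Ctsa and Gaa were the E-box genes that fell with PGE2. Those that rose with valinomycin were Gaa, Gla and Mcoln1, and Ctsf and Glb1 fell. The valinomycin calls of Gaa, Ctsf and Glb1 were each lost without some single libraries, as given above. Lamp1, with 4 E-boxes, and Ctsd, with a flanked one, had no call in either comparison, nor had Ctsl and Lgmn.

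Other genes of the lysosome were counted from lists chosen for their function. Their counts stand beside the shares of all genes tested in wild type cells, where 24% rose and 22.4% fell with IL-4, 29.9% and 29.5% with PGE2, and 19.4% and 18.9% with valinomycin. The proton pump (V-ATPase, 16 subunits and accessory proteins) had 8 genes higher and 2 lower with IL-4, 4 higher and 7 lower with PGE2, and 7 higher and 1 lower with valinomycin in wild type cells, with medians of 0.09, -0.07 and 0.03. The PGE2 and valinomycin comparisons and the IL-4 comparison share the IL-4 libraries. Atp6v0a1 rose with IL-4 (1.75 ± 0.045 (SE, adjusted p = 8.06e-20)) and fell with PGE2 (-1.16 ± 0.044 (SE, adjusted p = 1.86e-16)), as did Atp6v1b2 (0.64 and -1.05). Under valinomycin Atp6v1c1 (0.41) and Atp6v1a (0.31) had the smallest adjusted p. Of 28 other hydrolases and activators, 4 rose and 13 fell with PGE2, a median of -0.14, and the deoxyribonuclease Dnase2a (-0.85 ± 0.047 (SE, adjusted p = 1.98e-13)) and the phospholipase Pla2g15 (-0.82 ± 0.057 (SE, adjusted p = 3.01e-11)) were among those that fell. With IL-4 5 rose and 5 fell, and with valinomycin 4 rose and 8 fell. Of 21 other membrane proteins, 9 rose and 5 fell with PGE2 (median 0.09), among them the amino acid sensor Slc38a9 (0.74) and the sialic acid exporter Slc17a5 (-0.76). The mannose 6-phosphate receptor Igf2r, which sorts new enzymes, fell with IL-4 (-0.67), PGE2 (-0.37) and valinomycin (-0.20), and 4 of the 7 sorting genes fell and 2 rose with PGE2 (median -0.17).

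The list for control of TFEB and docking of mTORC1 held 18 genes. With valinomycin 7 rose and 4 fell (median 0.05), and with PGE2 3 rose and 7 fell (-0.09). Folliculin (Flcn, 0.90 ± 0.055 (SE, adjusted p = 9.27e-12)) and its partners Fnip1 (1.42 ± 0.055 (SE, adjusted p = 5.99e-15)) and Fnip2 (1.73 ± 0.067 (SE, adjusted p = 2.83e-13)), which act on the Rag GTPases, rose, as did the Rag GTPase Rragc (0.51 ± 0.048 (SE, adjusted p = 1.13e-08)). With PGE2 Fnip2 (-0.67) and Rragc (-0.37) fell, and Rptor, the substrate-binding subunit of mTORC1, rose (0.89). Tfec, another gene of the MITF family, rose with IL-4 (2.67 ± 0.065 (SE, adjusted p = 3.1e-20)). Among 17 autophagy genes 9 rose and 3 fell with PGE2 (median 0.10), and 7 rose and 2 fell with valinomycin (0.02). The selective autophagy receptor Sqstm1 rose with valinomycin (0.71 ± 0.056 (SE, adjusted p = 9.51e-10)), and Map1lc3b, which coats autophagosomes, rose with PGE2 (0.72 ± 0.048 (SE, adjusted p = 6.34e-12)). Of 4 cathepsin inhibitors tested, 2 rose and 1 fell with IL-4, and Cst7 was among those that rose (3.40 ± 0.25 (SE, adjusted p = 5.02e-11)). With the Etv1 hairpin in unstimulated cells, Sumf1, which activates sulfatases, fell (-1.26 ± 0.049 (SE, adjusted p = 3.23e-13)), and 5 V-ATPase genes rose and 4 fell, beside 24.9% and 26.8% of all genes tested. The other hydrolases had 12 higher and 7 lower there (median 0.04), and Scpep1 (-1.06) was among those lower.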

How the data were processed

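The authors deposited raw counts of reads per Ensembl gene for 30 libraries. The submitters' processing notes name STAR, featureCounts and GRCm38. Tool versions and the strand setting are not given in the sources used here. Exons of Ctsa, Ctsb, Ctsd, Ctsl, Ctsz, Lamp1, Hexa, Glb1, Npc1 and Ppt1 overlap another annotated gene, so their counts are less certain. Symbols and positions came from GENCODE M21 on GRCm38, which matched 42548 of 43629 gene IDs (97.5%), and unmatched IDs held 0.153% of counts. No replicate pair was alike within sampling noise (lowest chi-square per degree of freedom 1.24 over 30 pairs).

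Counts were tested with edgeR 4.0.16 in R 4.3.3 (robust quasi-likelihood fit, TMM normalization, filterByExpr), each experiment alone with all its groups (12824 genes in wild type, 12382 in shRNA) and 13358 genes where both entered. Calls required an adjusted p (Benjamini-Hochberg, over all genes tested) under 0.05. CPM used TMM library sizes within an experiment, except marker sums, which used library totals, so levels are not compared between experiments. The script was tested on simulated data. Depth was 6924973 to 30473040 counts, with few counts for Ctse and Ctsk.

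The members and lists were chosen with earlier results of these data known. Values by library are given for the 3 called members with the largest change in each wild type contrast against its control and each contrast of the hairpins, and for Tfeb, Tfe3, Mitf, Mcoln1, Lamp1 and Ctsd. Other lists are given by counts and up to 4 genes with the smallest adjusted p. Same-numbered libraries deviated together within each hairpin (correlation of deviations 0.106 to 0.49 in every pair). For library 3 of PGE2 with the control hairpin another number correlated slightly more (0.16 against 0.146). In wild type cells the correlation was 0.0529 to 0.198 in every pair among the groups with IL-4, and -0.0741 to 0.0151 for IL-4 against no stimulus. Between hairpins it was -0.0227 to 0.251. The numbers were taken to pair libraries within a hairpin. Alternatives were size factors of DESeq2, no filter, DESeq2 1.42.0, the contrast's groups alone, a replicate block and leaving out each library. The fit with the block within each hairpin and the one without the control shRNA libraries numbered 2 were chosen after seeing the data.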

Additional observations from a re-analysis of the deposited data

Results flagged for a closer look

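The differences of effect that passed the test are given here as values, in log2 units. The effect of IL-4 on Npc1 was lower with the Etv1 than with the control hairpin by -0.42 and higher with the control hairpin than in wild type cells by 0.42. These share the control shRNA libraries. The effect of PGE2 with the Etv1 hairpin, less that with the control hairpin, was 0.74 for Mitf, 0.58 for Lipa, 0.39 for Tfeb, 0.33 for Psap, 0.30 for Asah1 and -0.33 for Npc2. The effect of IL-4 on Lipa with the control hairpin, less that in wild type cells, was 0.28. The effect of PGE2 with the control hairpin, less that in wild type cells, was 1.84 for Ctsk, 0.30 for Npc2, -0.40 for Lipa, -0.37 for Gusb, -0.26 for Smpd1, -0.22 for Ppt1 and -0.20 for Asah1.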

How the results depend on the processing

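Of 181 member values called over the 15 comparisons, 141 kept call and direction under every alternative run for them, and none reversed. The other 40 lost the call under at least 1 alternative. The replicate block over all libraries kept all 181 and changed the count of members called beyond 1.5 times for PGE2 with the Etv1 hairpin (13) and for the hairpin differences of the IL-4 effect (2) and the PGE2 effect (12). It gave 4 for the difference of the IL-4 effect between control shRNA and wild type. With the replicate block within each hairpin the counts were 19 for IL-4 with the control hairpin, 8 for IL-4 and 17 for PGE2 with the Etv1 hairpin, and 6 and 14 for the differences. For the difference of the IL-4 effect between control shRNA and wild type, size factors of DESeq2 gave 4 and DESeq2 gave 5. For that of the PGE2 effect, the size factors gave 4 and the contrast's groups alone gave 4. Without the control shRNA libraries numbered 2, the hairpin difference of the IL-4 effect had 2. Leaving out each library gave 6 to 13 for valinomycin, 1 to 4 and 4 to 6 for the differences of the IL-4 and PGE2 effects between control shRNA and wild type, and counts within 1.5 times of those reported for the other 12 comparisons. The 2 scalings moved the median of all genes by at most 0.04. Where a call was lost the cause was not tested. Depth limits Ctse and Ctsk, which had few counts in the shRNA libraries.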
